A study of Mus musculus with 2 samples.

Results

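Krt79 cells are epithelial skin cells that carry transcripts of the keratin gene Krt79 and that here stand for the upper hair follicle and infundibulum. They were taken from cell outlines with at least 20 gene transcripts of quality 20 or above. An outline was a member if Trim29, Dsc3, Serpinb5 and S100a14 together made up at least 8% of its transcripts and it held at least 3 Krt79 transcripts. It could hold at most 2 transcripts of the follicle genes Lhx2 and Tbx1 together, at most 2 of the division genes Cenpf and Ube2c together, and under 8% of the granular-layer genes Lor and Asprv1. The rule was met by 7212 of 59588 cells, 5648 of 44282 in SspA+HDM skin and 1564 of 15306 in mock skin. The skin was whole back skin of C57BL/6 mice, shaved and depilated in both groups. It was treated on the surface with SspA and HDM together (SspA+HDM) or with PBS (mock), and was taken at day 7 and measured with Xenium In Situ, which decodes single transcripts of a gene panel in place, in 5-µm sections of fixed, paraffin-embedded tissue. There was 1 sample per treatment, so no test was run, no difference has a replicate check, and each interval covers counting error only, at 95%. Ages and the number of animals are not given in the labels used here.

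The infundibulum is the funnel of the hair follicle that opens at the skin surface and passes below into the isthmus, where the duct of the sebaceous gland joins. In the mouse, Krt79 marks the suprabasal cells of this upper part and is first seen in cells that move out of the hair germ and help to open the hair canal. The region is a boundary between epidermis, gland and lower follicle, and it holds cells that can turn to any of these fates after injury.

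The sections held 8124205 gene transcripts in SspA+HDM and 2461475 in mock, of 379 panel genes, and 97.6% and 94.5% of them lay in cell outlines. Each section was made of 2 strips of skin, with a summed length of 15.4 mm in SspA+HDM and 13.9 mm in mock. Strips are parts of a section and not replicates. Counted in steps of 200 µm along the length, the numbers of Krt79 cells in the 2 strips went together with a Pearson r of 0.83 over 37 steps in SspA+HDM and 0.23 over 34 steps in mock, where the points are neighbouring stretches of 1 section. No cell name was shared between the sections. No doublet caller was run, and transcripts of a neighbouring cell can fall inside an outline.

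The first question was how many Krt79 cells each skin held and where they lay. Krt79 cells made up 28.0% of epithelial cells in SspA+HDM (exact binomial interval 27.3 to 28.6) and 23.8% in mock (22.8 to 24.9). Per mm of strip there were 367 in SspA+HDM and 112 in mock, on tissue in which all epithelial cells stood at 1314 and 471 per mm. The strips gave 343 and 392 Krt79 cells per mm in SspA+HDM, against 103 and 121 in mock, so the strips of the groups did not overlap. The share of epithelial cells was 27.9% and 28.0% in the SspA+HDM strips and 23.5% and 24.1% in the mock strips. A count threshold takes in more cells where outlines hold more transcripts, and the members' median was 146 transcripts in SspA+HDM and 120 in mock. With every cell thinned to 60 transcripts the shares were 22.2% and 21.4%. That step left out 319 Krt79 cells in SspA+HDM and 164 in mock for too few transcripts. The share at equal depth therefore differed by less than the share before thinning.

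Krt79 cells lay in compact patches below the surface epithelium. Depth was taken from the outermost epithelial cells of the same section. Their median depth was 117 µm in SspA+HDM (quartiles 83.7 and 155) and 67.6 µm in mock (52.1 and 80.7), while epithelial cells with no Krt79 transcript lay at 29.6 and 18.7 µm. Follicle cells, called by Lhx2 and Tbx1, lay deeper, at a median of 196 µm in SspA+HDM and 91.2 µm in mock. The order of the 3 classes from the surface inward was thus the same in both sections. The nearest follicle cell was at a median of 61.4 µm from a Krt79 cell in SspA+HDM and 43.7 µm in mock, against 139 and 69.5 µm for Krt79-negative epithelial cells. When cells within 20 µm were joined, 97.5% of the Krt79 cells in SspA+HDM and 95.1% in mock fell into patches of at least 5 cells. There were 153 such patches in SspA+HDM and 95 in mock, or 9.96 and 6.82 per mm. A patch held a median of 22 cells in SspA+HDM (quartiles 12 and 49) and 13 in mock (8.5 and 20.5), and spanned 57.3 and 31.3 µm of depth. The larger number of Krt79 cells per mm in SspA+HDM thus came with both more patches and larger ones. In 43.8% of patches in SspA+HDM and 50.5% in mock a follicle cell lay within 20 µm, and the other patches had none that near.

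**Figure D1:**
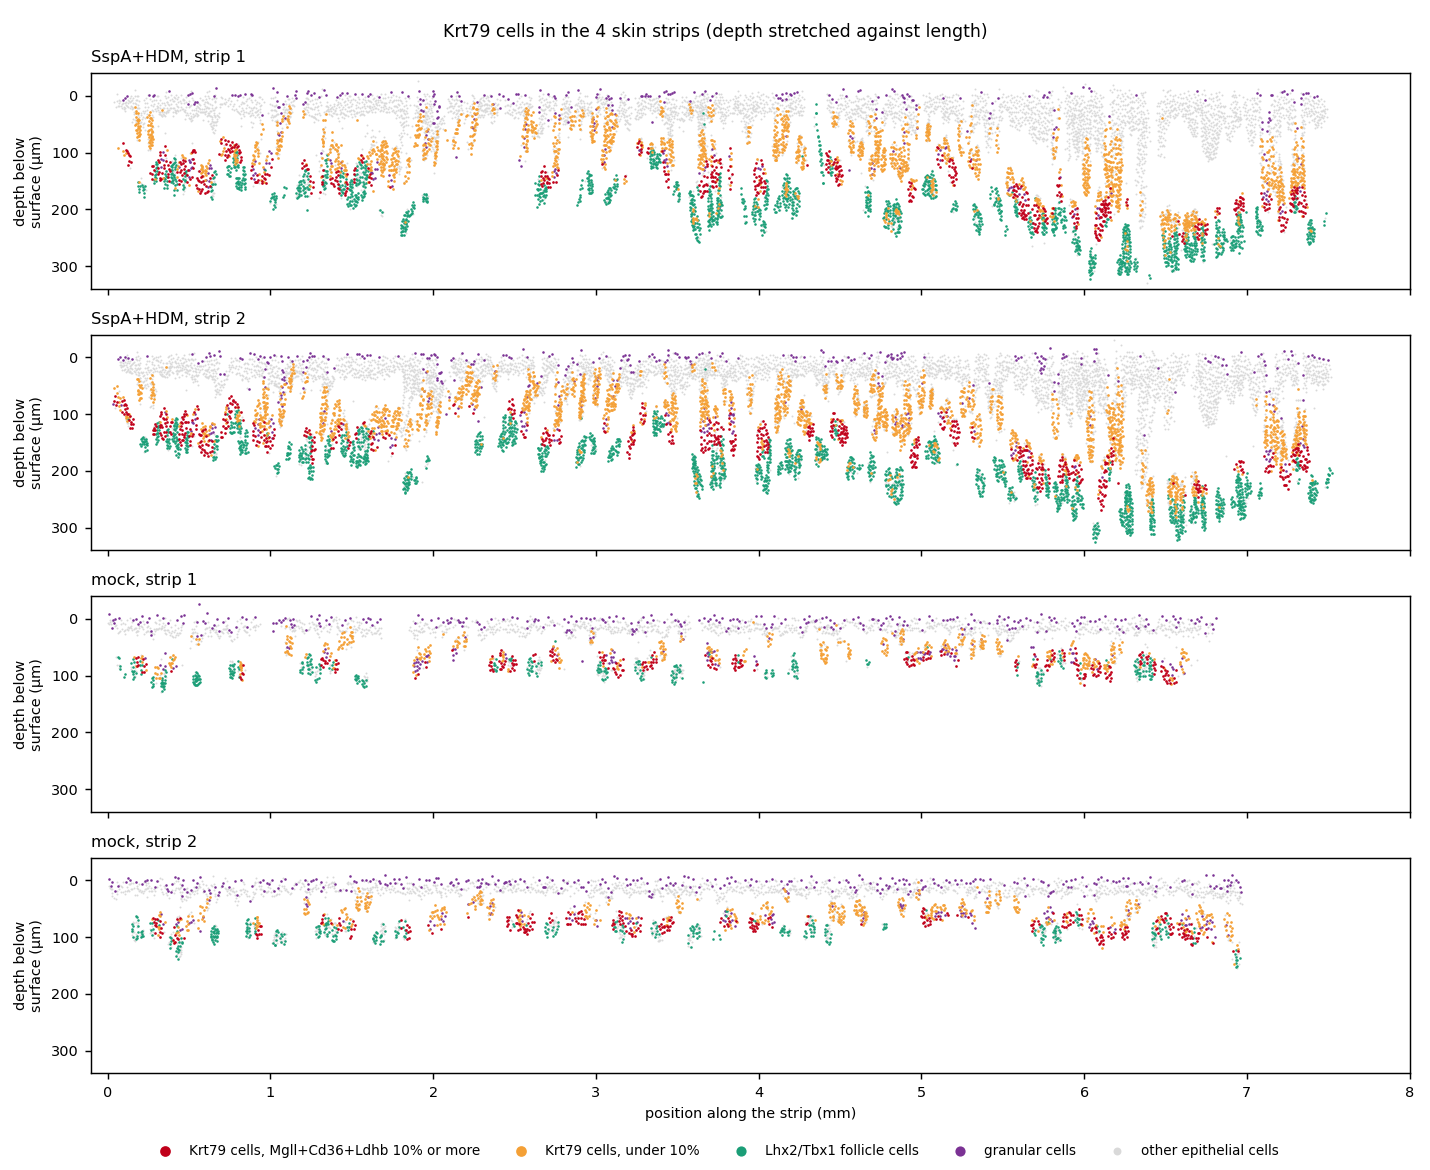
Each point is a cell, placed by its position along the strip (mm) and its depth below the epithelial surface (µm), with depth stretched against length; the 2 SspA+HDM strips are above the 2 mock strips. Krt79 cells (orange and red) form columns between the surface epithelium (grey) and the Lhx2/Tbx1 follicle cells (green), at a median depth of 117 µm in SspA+HDM and 67.6 µm in mock.

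The members were chosen by their counts of Krt79 and of the other genes of the rule, so these values are given as a description only. A Krt79 cell held a median of 9 Krt79 transcripts in each section, up to 82 in SspA+HDM and 64 in mock, or a median of 7.02% and 8.24% of its transcripts. Just inside the threshold, 503 cells in SspA+HDM and 151 in mock held 3, and just outside it 656 and 151 held 2. Calm4, a calmodulin-like gene of differentiating keratinocytes, stood at 51010 and 31162 CPM in the cells with 3, and at 63443 and 44023 CPM in those with 2. CPM is the usual count scaled to a fixed panel total, here summed over the named cells. Mgll, which encodes monoglyceride lipase, stood at 4621 and 12157 CPM with 3 and at 2604 and 6980.3 CPM with 2. The cells on either side of the threshold were thus nearer to each other in Mgll than to the average member, which had 33548 CPM of Mgll in SspA+HDM and 52021 in mock. Krt79 cells held 68.8% of the Krt79 transcripts in SspA+HDM outlines and 68.5% in mock.

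The label was checked with the 2 markers that the rule did not use. Hsd3b4, a gene of the hydroxysteroid dehydrogenase family, stood at 1216 CPM in Krt79 cells of SspA+HDM and 2243 in mock, against 25.3 and 45.1 CPM in Krt79-negative epithelial cells. It was at 130 and 125 CPM in follicle cells, 147 and 83.6 CPM in granular cells, and 49.0 and 40.6 CPM in non-epithelial cells, so Krt79 cells had the highest level of these classes in both sections. That level is a sum over all members, and it did not hold for all of them, as given below. Ly6g6c, a gene of the Ly6 family of surface proteins, did not single them out. It stood at 34422 and 48648 CPM in Krt79 cells, 20089 and 22914 CPM in Krt79-negative epithelial cells, and 48858 and 42018 CPM in granular cells. Of the 15 genes listed for the upper follicle and infundibulum, 4 were on the panel (Krt79, Ly6g6c, Hsd3b4 and Sox9). None of the 10 listed sebaceous gland genes was on it, so a sebaceous part of these patches was not measured.

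The second question was what set Krt79 cells apart from Krt79-negative epithelial cells of the same section. Of 167 genes with at least 100 transcripts in the members of a section and not used by the rule, 41 (24.6%) were at least 2-fold higher in Krt79 cells in both sections and 20 (12%) at least 2-fold lower. With the median fold over all genes set to 1 in each section, these counts were 23 and 28. Cells with many Krt79 transcripts were chosen against cells with none, so these folds are a description of the members.

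Mgll stood at 33548 CPM in Krt79 cells and 578 CPM in Krt79-negative cells of SspA+HDM, 58.0-fold (interval 54.4 to 62.0), and at 52021 and 4225 CPM in mock, 12.3-fold (11.7 to 13.0). Ldhb, a subunit of lactate dehydrogenase, was 17.0-fold higher (16.1 to 18.0) in SspA+HDM and 57.4-fold (49.4 to 67.0) in mock. Both enzyme genes were well above the Krt79-negative level in both sections, though in different proportion. Cd36, a fatty acid receptor, was 156-fold higher (131 to 186) in SspA+HDM and 60.5-fold (49.1 to 75.3) in mock. It lies outside the rule for named genes, because non-epithelial cells had more of it, and was added after its values were seen. Granular cells held Cd36 at 14138 and 14432 CPM, close to the 12603 and 13791 CPM of Krt79 cells. Emb, which encodes a partner of monocarboxylate carriers, was 10.5-fold and 9.23-fold higher, and the serine protease inhibitor gene Serpina3n 11.7-fold and 11.01-fold.

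Sostdc1, which encodes an antagonist of Wnt and BMP signals, was 19.0-fold higher in Krt79 cells of SspA+HDM (5977 against 314 CPM) and 6.01-fold in mock (2891 against 481 CPM). Sox9, a transcription factor of follicle stem cells and the outer root sheath, was 11.03-fold and 4.22-fold higher. Follicle cells had more Sox9 than Krt79 cells, at 30543 and 36350.0 CPM against 11997 and 13639 CPM. Krt79 cells thus stood between the follicle and the Krt79-negative epithelium for Sox9. For Sostdc1 they stood above both as a sum over all members, with follicle cells at 3727 and 2201 CPM. The extracellular matrix gene Coch was 13.0-fold and 3.86-fold higher, and Cplx2, known from vesicle release at synapses, 5.67-fold and 3.63-fold. Bst1, an ADP-ribosyl cyclase gene, was 5.32-fold and 6.13-fold higher. Car2, a carbonic anhydrase gene, was 5.06-fold higher in SspA+HDM and 38.5-fold (10.02 to 328) in mock, where the Krt79-negative cells held 2 transcripts.

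The genes lowest in Krt79 cells relative to Krt79-negative cells were of several kinds. Gm94 was at 0.170 of the Krt79-negative level in SspA+HDM and 0.0510 in mock, and the Wnt ligand gene Wnt3 at 0.185 and 0.0515. The cornified envelope gene Cnfn was at 0.284 and 0.104, the cystatin-family gene Cstdc4 at 0.157 and 0.245 and the serpin gene Serpinb11 at 0.266 and 0.140. Ndufa4l2, which encodes a mitochondrial protein, was at 0.295 and 0.161. All 6 were lower in Krt79 cells of both sections.

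**Figure D2:**
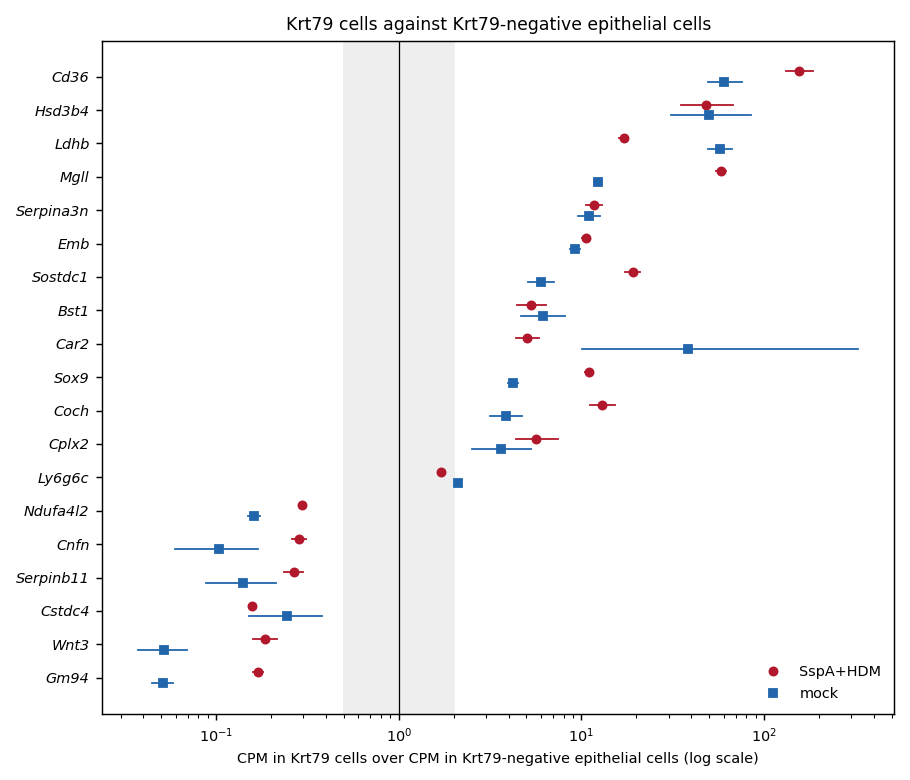
Fold of CPM in Krt79 cells over Krt79-negative epithelial cells on a log axis, in SspA+HDM (red circles) and mock (blue squares), with exact 95% counting intervals; the grey band is less than 2-fold. Hsd3b4 had nearly the same fold in both sections (48.0 and 49.7), while Mgll, Sostdc1 and Sox9 had the larger fold in SspA+HDM and Ldhb in mock.

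Krt79 cells were not uniform: their content differed with depth. In SspA+HDM, Mgll stood at 535 CPM in members 25 to 50 µm below the surface, 13079 CPM at 75 to 100 µm and 66698 CPM at 175 to 200 µm. In mock it stood at 3282, 44628 and 78184 CPM at 25 to 50, 50 to 75 and 75 to 100 µm. Hsd3b4 went the same way, with 23.8, 303 and 2418 CPM at the 3 SspA+HDM depths and 29.0, 2245 and 3006 CPM at the 3 mock depths. Calm4 ran the other way, with 78983, 49338 and 9643 CPM in SspA+HDM and 46235, 9425 and 1316 CPM in mock. The stress keratin gene Krt16 was likewise lower at depth, at 51133, 33096 and 7436 CPM in SspA+HDM and 4937, 2099.9 and 326 CPM in mock. Both sections thus had the same order over these steps. Depth was taken from each section's own surface, and the same depth need not be the same layer. The deepest SspA+HDM members, 55 cells at 250 to 275 µm, had Sox9 at 42422 CPM, Sostdc1 at 12655 CPM and Ly6g6c at 5896 CPM, values nearer to follicle cells than to the average member for Sox9 and Ly6g6c.

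**Figure D3:**
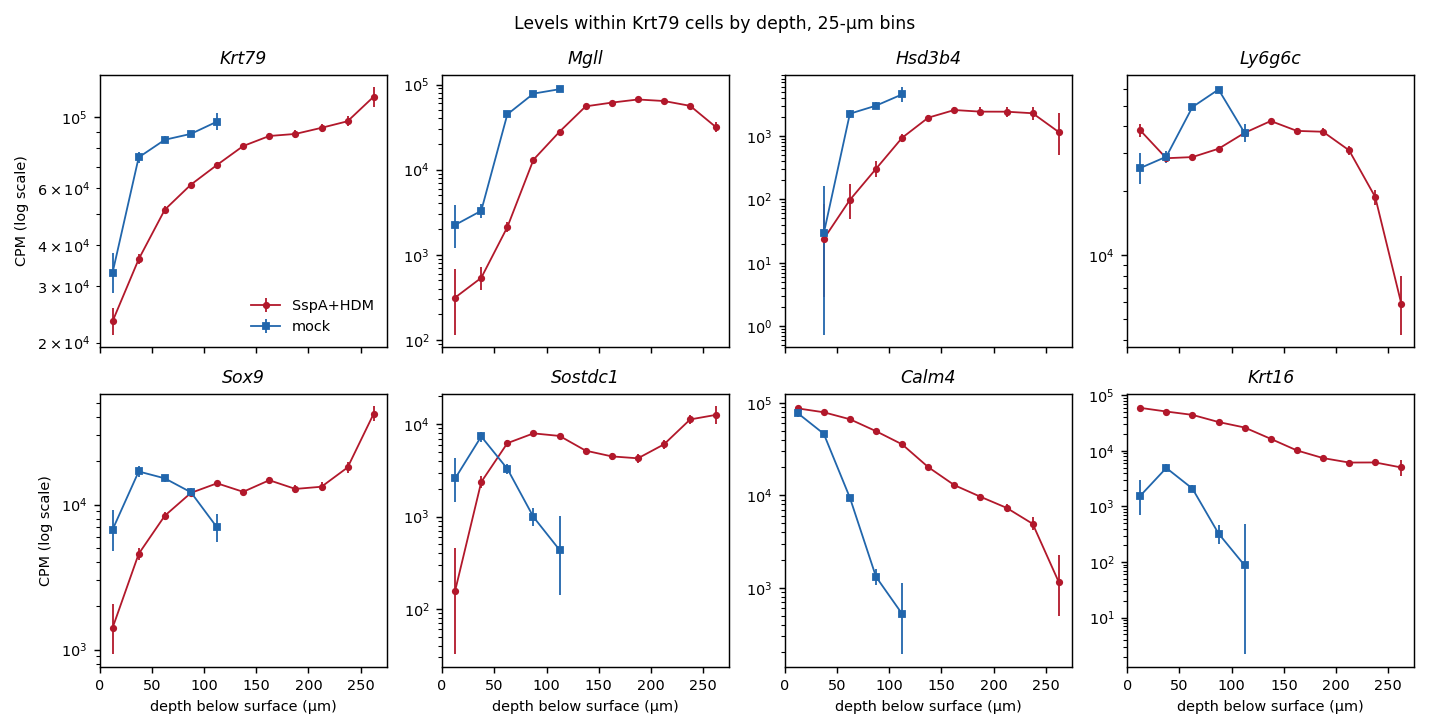
CPM within Krt79 cells (log axis) in 25-µm steps of depth below the surface, in SspA+HDM (red circles) and mock (blue squares), with exact 95% Poisson intervals; steps with fewer than 20 cells or no transcript are left out. In SspA+HDM, Mgll is highest at 175 to 200 µm (66698 CPM) and lower at 250 to 275 µm (31349 CPM), and in mock it is highest at the deepest step, 100 to 125 µm (88107 CPM). Calm4 is lower at each deeper step in both sections.

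To describe this range, Krt79 cells were split by the share of Mgll, Cd36 and Ldhb in their transcripts, a split chosen after the values were seen. Cells with at least 10% are called Mgll-rich and cells under 5% Mgll-poor. These are ends of a range and not cell types, and 171 cells in SspA+HDM and 99 in mock lay within 1 percentage point of the upper limit. Mgll-rich cells were 1396 (24.7%, interval 23.6 to 25.9) in SspA+HDM and 599 (38.3%, 35.9 to 40.8) in mock. Mgll-poor cells were 3861 (68.4%) and 775 (49.6%). The strips had 24.41% and 24.98% Mgll-rich cells in SspA+HDM, against 37.7% and 38.8% in mock, without overlap. Per mm there were more of both kinds in SspA+HDM, with 90.8 Mgll-rich cells against 43.0 in mock, and 251 Mgll-poor cells against 55.65. The density of the Mgll-poor end thus differed more between the sections than that of the Mgll-rich end.

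Mgll-rich cells lay deeper and nearer to the lower follicle. Their median depth was 151 µm in SspA+HDM and 79.4 µm in mock, against 99.8 and 52.5 µm for Mgll-poor cells. The nearest follicle cell was 24.9 and 22.0 µm away from a Mgll-rich cell, and 76.7 and 74.8 µm from a Mgll-poor one. Of the patches, 72 of 153 in SspA+HDM and 62 of 95 in mock held Mgll-rich cells, and 65 and 47 held both kinds. Most patches with Mgll-rich cells thus held Mgll-poor cells as well, and other patches had no Mgll-rich cell.

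Beyond the 3 genes of the split, Hsd3b4 stood at 3718 CPM in Mgll-rich and 60.1 CPM in Mgll-poor cells of SspA+HDM, 61.8-fold, and at 4094 and 95.5 CPM in mock, 42.9-fold. Hsd3b4, the marker that set the members as a whole apart from the classes named above, thus lay almost wholly at the Mgll-rich end. The Mgll-poor end held 68.4% of members in SspA+HDM and 49.6% in mock. There its level was below that of follicle cells in both sections, and in SspA+HDM also below that of granular cells. At that end Hsd3b4 thus did not set the members apart. Cavin2, a gene of caveolae, was 35.1-fold and 14.9-fold higher at the Mgll-rich end, Serpina3n 11.4-fold and 6.37-fold, and Emb 5.30-fold and 7.46-fold. Calm4, Rbp2 and Ivl were higher at the Mgll-poor end, while the suprabasal gene Sbsn was not, with 85374 CPM in Mgll-rich and 64558 CPM in Mgll-poor cells of SspA+HDM, and 82778 and 74188 CPM in mock. Calm4 stood at 1957 CPM in Mgll-rich and 55449 CPM in Mgll-poor cells of SspA+HDM, and at 328 and 34295 CPM in mock. The retinol-binding protein gene Rbp2 stood at 166 and 13686 CPM in SspA+HDM and at 27.3 and 3307 CPM in mock, and the cornified envelope gene Ivl was at 0.151 and 0.116 of its Mgll-poor level. The basal adhesion gene Col17a1 also lay at the Mgll-poor end, with 8759.8 CPM in Mgll-rich and 26042 CPM in Mgll-poor cells of SspA+HDM, and 9389.7 and 37291 CPM in mock. Sostdc1 likewise stood at 1622 CPM in Mgll-rich and 7802 CPM in Mgll-poor cells of SspA+HDM, and 628 and 6147 CPM in mock. Its Mgll-rich level was below that of follicle cells in both sections. These are sums over cells, and whether the same cells held Col17a1 and Calm4 was not tested. Across the members of a section, the shares of Mgll and Calm4 had a Spearman rho of -0.57 in SspA+HDM (5648 cells) and -0.59 in mock (1564 cells), and those of Sostdc1 and Col17a1 had 0.51 and 0.39. Shares of 1 cell have a common total and the cells a common section, so these are descriptions.

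The third question was how Krt79 cells of SspA+HDM skin differed from those of mock skin. Krt16, Cstdc4, Stfa2l1 and Slc5a1 were among the named genes with high ratios, and Fmo5 and Krt13 among those with low ratios. Of the 167 genes, 30 (18%) had a ratio of SspA+HDM over mock of 2 or more and 23 (13.8%) were lower by the same size. For 23 of the 30 and 18 of the 23 the 2-fold size held in each of the 4 pairings of an SspA+HDM strip with a mock strip. Counted per cell and not as CPM, 37 were higher and 16 lower, since the median log2 ratio over all genes was 0.24 on that scale and -0.06 on the main one. In Krt79-negative epithelial cells, 30 of 164 genes (18.3%) were higher and 62 (37.8%) lower. Over the 167 genes the median log2 ratio there was -0.64. The difference between the 2 kinds of cell was not tested, and the values stand side by side.

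Krt16 stood at 26203 and 25231 CPM in the Krt79 cells of the SspA+HDM strips and at 1645 and 1845 CPM in the mock strips, a ratio of 14.7 (interval 13.3 to 16.3) over the sections. In Krt79-negative cells the ratio was 12.5. Among the protease inhibitors, Cstdc4 stood at 6471 and 5509.9 CPM in the SspA+HDM strips, against 117 and 95.3 CPM in the mock strips, 56.4-fold (37.5 to 89.0). Stfa2l1, of the same cystatin family, was 59.5-fold higher (27.3 to 162), from 1584 and 6 transcripts. Their ratios in Krt79-negative cells were 88.1 and 228. These genes were high in SspA+HDM in both kinds of cell, and in SspA+HDM Krt79 cells had 0.157 and 0.106 of the Krt79-negative level.

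The next pair had almost no mock transcripts in Krt79 cells. The gene of the secreted GPR15 ligand, 2610528A11Rik, had 1182 in SspA+HDM and 1 in mock, a ratio of 266 (47.7 to 10532). Uox, which encodes urate oxidase, had 566 and 2, a ratio of 63.8 (17.6 to 528). With mock counts this low, the size of either ratio is known only within its interval.

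Of the 7 listed carrier, channel and pump genes on the panel, 5 had at least 100 transcripts, and these 5 were at least 2-fold higher (18% of all genes were). The other two divided, with Kcnj16 at a ratio of 0.421 (0.265 to 0.679) from 56 and 30 transcripts and Gabrp at 4.28 (1.11 to 36.6) from 38 and 2. Slc5a1, a sodium and glucose carrier, stood at 4314 and 3876 CPM in the SspA+HDM strips and 304 and 364 CPM in the mock strips, 12.2-fold (9.65 to 15.6). The phosphate carrier gene Slc34a2 stood at 3642 and 3094 CPM, against 568 and 693 CPM, 5.28-fold (4.46 to 6.31). Atp6v1b1, a subunit of the proton pump, was 14.6-fold higher (6.18 to 45.1) from 323 and 5 transcripts, and Fxyd4, which modulates the sodium pump, 5.90-fold (2.65 to 16.3) from 157 and 6. Their ratios in Krt79-negative cells were 0.886 for Atp6v1b1 and 1.42 for Fxyd4, where Slc5a1 and Slc34a2 had 8.83 and 17.3. Aqp3, an aquaporin that carries water and glycerol, was 2.34-fold higher (2.22 to 2.47). Its log2 ratio of 1.23 was 0.74 after thinning to 60 transcripts, under 2-fold.

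Late differentiation genes divided. Lce1m, a late cornified envelope gene, had only 48 transcripts in SspA+HDM and 60 in mock and was left out of the count. Its ratio was 0.180 (0.121 to 0.268), the other way from the higher genes of the list. Of the 5 listed with enough transcripts and not used by the rule, 3 were at least 2-fold higher (18% of all genes were). Cnfn was 8.34-fold higher (5.17 to 14.4), Calm5 3.53-fold (3.15 to 3.96) and Calm4 2.70-fold (2.60 to 2.80), while Ivl and Sbsn had ratios of 1.13 and 0.897. After thinning to 60 transcripts the log2 ratios of Cnfn, Calm5 and Calm4 were 0.94, 0.68 and 0.81, each under 2-fold, against 3.06, 1.82 and 1.43 before. Calm4 stood at 35756 and 37041 CPM in the SspA+HDM strips and 13903 and 13146 CPM in the mock strips. In Krt79-negative cells, where its level was 83086 and 77528 CPM, the ratio of Calm4 was 1.07. Retinoid and acyl-lipid genes were also higher, with Rbp2 6.84-fold (6.07 to 7.73) and Them5, an acyl-CoA thioesterase gene, 6.11-fold (5.38 to 6.97). Sostdc1 was 2.07-fold higher (1.90 to 2.25), against a ratio of 0.652 in Krt79-negative cells. It was not 2-fold higher in each of the 4 strip pairings, and its ratio was 2.58 in Mgll-rich and 1.27 in Mgll-poor cells. Car2 was 3.89-fold higher (2.85 to 5.45). Sox9 had a ratio of 0.880 (0.845 to 0.916) and Coch 1.06, with an interval that takes in 1. Serpinb11 was 3.28-fold higher (2.17 to 5.19), and its log2 ratio of 1.71 turned to -0.68 after thinning to 60 transcripts.

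The keratinocyte activation list had 7 members with enough transcripts. Krt16, 2610528A11Rik and Cxcr2 were higher, Krt13 was lower, and Areg, Il1r2 and Mmp9 had ratios of 0.918, 0.702 and 0.851. Areg, an EGF receptor ligand, had a ratio of 7.19 in Krt79-negative cells. Cxcr2, the neutrophil chemokine receptor, was 7.21-fold higher (3.03 to 22.5) from 160 and 5 transcripts. The list median was -0.12 on the log2 scale, against -0.06 over all genes. It was 5.82 for the 3 protease inhibitors, 2.56 for the 5 carriers, 1.43 for the 5 late differentiation genes and 2.77 for the 3 small molecule metabolism genes (Hsd3b4, Rbp2 and Uox). For the upper follicle and infundibulum list it was -0.50 over 3 genes, of which none passed 2-fold in either direction.

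The named genes with low ratios are given next, those at least 2-fold lower first. The flavin monooxygenase gene Fmo5 stood at 754 and 893 CPM in the SspA+HDM strips, against 3535 and 4243 CPM in the mock strips, a ratio of 0.212 (0.192 to 0.233). Krt13, a keratin of mucosal epithelia, stood at 4113 and 3819.5 CPM, against 14677 and 14090.0 CPM, a ratio of 0.275 (0.263 to 0.289). The cytochrome P450 gene Cyp4b1 had a ratio of 0.355 (0.320 to 0.394), Emb 0.454 (0.440 to 0.467) and Bst1 0.485 (0.413 to 0.571). For these 5 the ratio in Krt79-negative cells was also below 1, from 0.0752 for Cyp4b1 to 0.559 for Bst1. Bst1 was not 2-fold lower in each of the 4 strip pairings. Its log2 ratio of -1.04 was -0.78 at a quality score of 30 and -0.75 counted per cell, under 2-fold. Scin, an actin-severing protein gene, was at 0.524 (0.491 to 0.559), Serpina3n at 0.529, Hsd3b4 at 0.542 (0.488 to 0.604), Hap1 at 0.558, the tight junction gene Cldn4 at 0.603 and Ldhb at 0.610, all less than 2-fold lower. Ly6g6c was at 0.708 (0.692 to 0.723) and Mgll at 0.645 (0.631 to 0.659).

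Because Mgll-poor cells were a larger part of the SspA+HDM members, each ratio was also taken within the ends of the range. Of 89 genes in Mgll-rich cells, 12 (13.5%) were higher in SspA+HDM by 2-fold or more and 8 (8.99%) lower. Of 138 genes in Mgll-poor cells, 28 (20.3%) were higher and 24 (17.4%) lower. The difference between the ends was not tested. Several of the lower ratios above were nearer to 1 at the Mgll-rich end. Hsd3b4 had a ratio of 0.908 (0.813 to 1.02) there, against 0.542 over all members, and Serpina3n 0.859. In Mgll-poor cells Serpina3n had 0.481 (0.397 to 0.587), at least 2-fold lower. Hsd3b4 had 0.630 (0.289 to 1.57) in Mgll-poor cells, from 37 and 8 transcripts. Emb had 0.597 in Mgll-rich and 0.840 in Mgll-poor cells, less than 2-fold lower at either end. With equal weight on the ends and the cells between them, its log2 ratio was -0.59, against -1.14 over all members. Ly6g6c had 0.892 in Mgll-rich and 0.774 in Mgll-poor cells.

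Other genes kept a large ratio at 1 end. Slc34a2 had a ratio of 1.35 (1.08 to 1.70) in Mgll-rich cells, at 1226 and 909.9 CPM, and 38.5 (20.9 to 80.4) in Mgll-poor cells, at 4595 and 119 CPM. In mock the gene was thus higher at the Mgll-rich end, and in SspA+HDM at the Mgll-poor end. Fmo5 had ratios of 0.859 (0.708 to 1.05) in Mgll-rich and 0.0885 (0.0772 to 0.101) in Mgll-poor cells. In Mgll-poor cells it stood at 571 CPM in SspA+HDM, against 6446 CPM in mock. Cldn4 had 1.31 and 0.352. Aqp3 kept no such ratio, with 0.534 (0.410 to 0.697) and 1.66 (1.57 to 1.77), less than 2-fold at either end and in opposite directions. Over all members its ratio was 2.34.

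Krt16 had a high ratio at both ends. Krt16 was 9.05-fold higher in Mgll-rich cells (5.97 to 14.4; 1893 against 209 CPM) and 9.61-fold in Mgll-poor cells (8.63 to 10.7; 38779 against 4035 CPM). Slc5a1 had 9.30 (1.52 to 382) and 7.82 (6.15 to 10.1). Calm4 was 5.98-fold higher (4.27 to 8.62) in Mgll-rich cells and 1.62-fold (1.56 to 1.68) in Mgll-poor cells. The ratios of Scin were 0.499 and 0.483, and those of Krt13 0.439 and 0.192. Cstdc4 stood at 159 and 54.6 CPM in Mgll-rich cells, a ratio of 2.92 (1.24 to 8.34), and at 9244 and 191 CPM in Mgll-poor cells, a ratio of 48.4 (29.8 to 84.7). Uox had 553 transcripts in Mgll-poor cells of SspA+HDM and 0 in mock, at least 25.1-fold higher with 3 counts set over the mock cells. Most of the transcripts of both genes in members thus lay at the Mgll-poor end.

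**Figure D4:**
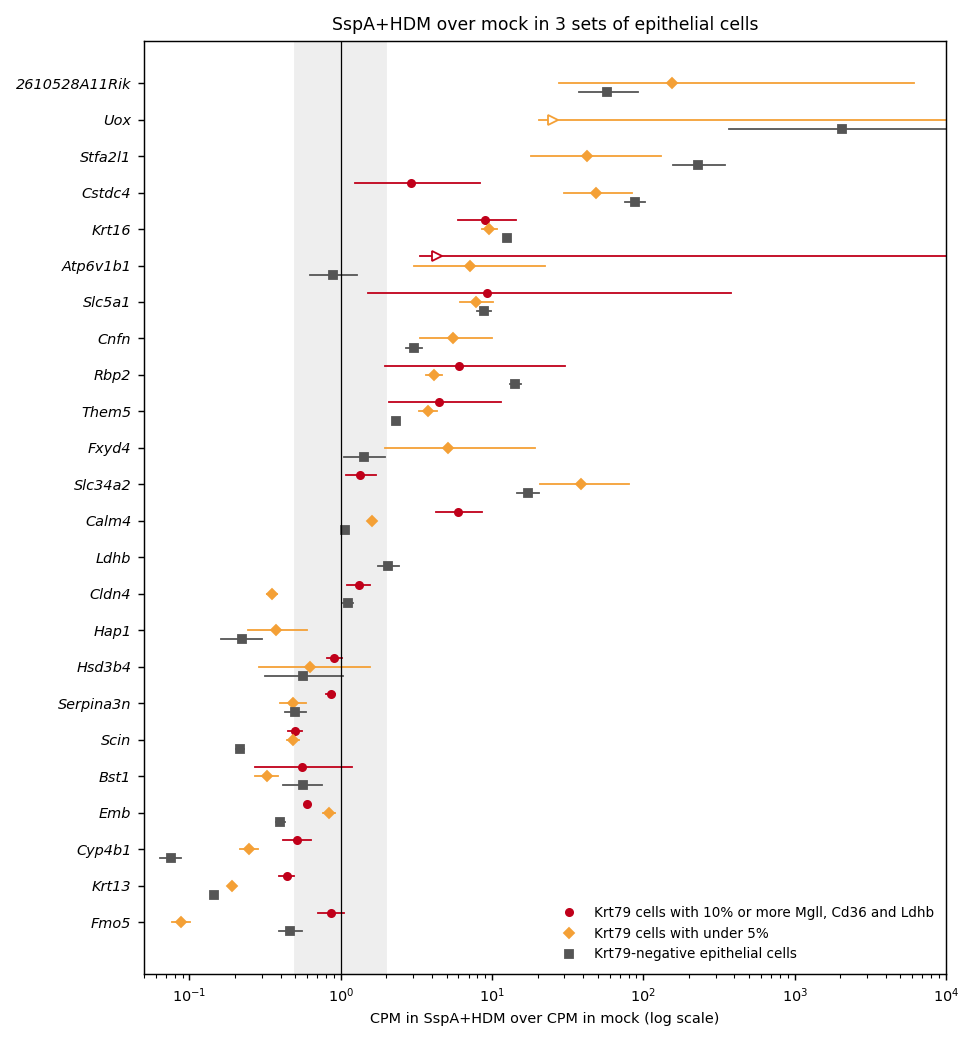
CPM in SspA+HDM over CPM in mock on a log axis, in Mgll-rich Krt79 cells (red circles), Mgll-poor Krt79 cells (orange diamonds) and Krt79-negative epithelial cells (grey squares), with exact 95% counting intervals; open triangles are lower bounds, the grey band is less than 2-fold, and genes under 20 transcripts in a set, or Ldhb within its own split, are not drawn. Slc34a2 (1.35 and 38.5) and Fmo5 (0.859 and 0.0885) lie far apart between the ends, while the Krt16 ratios (9.05 and 9.61) lie side by side.

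Transcripts of genes listed as markers of other cell types were present in the outlines. All listed panel markers of fibroblasts, macrophages, T cells, granulocytes, mast cells, endothelium, lymphatics, mural cells, fat and muscle were above 0 in Krt79 cells of both sections. The 6 fibroblast markers summed to 12322 CPM in Krt79 cells of SspA+HDM and 13456 in mock, against 83576 and 81127 CPM in non-epithelial cells and 2865 and 7032 CPM in Krt79-negative epithelial cells. The 3 mural markers summed to 871 and 2073 CPM in Krt79 cells, with 1402 and 2766 CPM at the Mgll-rich end and 452 and 1146 CPM at the Mgll-poor end. The 5 macrophage markers summed to 569 and 1094 CPM, the 4 T cell markers to 1027 and 666 CPM and the 3 granulocyte markers to 226 and 82.7 CPM. The granulocyte sum was 2344 and 226 CPM in Krt79-negative epithelial cells, against 1437 and 216 CPM in non-epithelial cells. The sum was thus no higher in non-epithelial cells than in Krt79-negative epithelial cells. Most of it in Krt79-negative cells was Cxcr2, at 2286 CPM in SspA+HDM and 178 CPM in mock. Whether these transcripts came from granulocytes was not tested. Cxcr2, also on the keratinocyte activation list, alone stood at 166 CPM in Krt79 cells of SspA+HDM and 23.0 in mock. Within the lists the members divided. Of the fibroblast markers, Pcolce2, Igfbp6 and Pi16 had ratios of 0.231, 0.258 and 0.304, while Dpt, Lum and Bgn had 0.757, 1.01 and 1.77. Of the mural markers, Myh11 had 0.248, Cnn1 0.136 from 58 and 96 transcripts, and Rgs5 1.98. Their part in the other ratios was not tested.

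Cd36 is also a gene of fat cells, and its level is given beside those of the other fat markers. At the Mgll-rich end Cd36 stood at 35835 CPM in SspA+HDM and 20854 in mock, with Car3 at 968 and 1447 CPM, Retn at 77.9 and 109 CPM and Pck1 at 30.5 and 18.2 CPM. In non-epithelial cells Cd36 stood at 14250.1 and 17999 CPM, Car3 at 93035 and 109868 CPM, Retn at 7161 and 9376 CPM and Pck1 at 1797 and 1004 CPM. Over the nucleus lay 28.7% of the Cd36 transcripts of Krt79 cells in SspA+HDM (27.9 to 29.5) and 25.5% in mock (23.9 to 27.1), against 42.3% and 37.5% of all their transcripts. For Krt79 the share was 41.6% and 35.6%, for Mgll 33.3% and 33.6% and for Sox9 53.5% and 48.6%. Cd36 thus had the lowest nuclear share of the genes examined this way.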

How the data were processed

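The deposited table of each section lists single decoded transcripts and, per the file headers, gives each one a position, a cell, its overlap with a nucleus and a quality score. A second deposited table holds outline vertices, in positions taken as µm. Decoding and segmentation software is not given in the sources used here. Transcripts with a score of at least 20 were counted per outline (78.1% of gene transcripts in SspA+HDM, 79.4% in mock), and control features were dropped. The median outline held 127 and 108 transcripts. The members and gene lists were chosen with earlier results of these data known. Non-epithelial cells are those with under 0.5% of the 4 epithelial genes. Sums over cells were scaled to the panel total (CPM). Ratios have exact conditional binomial intervals, levels Poisson and shares Clopper-Pearson ones, all covering counting error only. Genes needed 100 transcripts in a section, and 2-fold is a size and not a test. Depth was taken from the 2nd percentile of epithelial cells in 50-µm steps. Patches link centres within 20 µm, and strips link cells within 100 µm. Named genes needed at least the non-epithelial level (79 of 167 did). They are the 12 highest and 12 lowest ratios, the 12 highest and 6 lowest folds over Krt79-negative cells, the 2 markers and the list members. 1 of them is not reported here. Counting code was tested on simulated data. Alternatives changed the score, the thresholds, depth, strips, the compartment, scaling and the gene minimum. Python 3.11.15, pandas 2.3.3, numpy 2.4.6, scipy 1.17.1 and matplotlib 3.10.9 were used.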

Additional observations from a re-analysis of the deposited data

Results flagged for a closer look

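For 3 genes the treatment ratio was at least 2-fold higher in Krt79 cells and at least 2-fold lower in Krt79-negative epithelial cells. Over all genes, 18% were higher by that size in Krt79 cells and 37.8% lower in Krt79-negative cells. The count of 3 was not compared with what these shares alone would give, so it is not a result about these genes as a set. The difference between the kinds of cell was not tested. Bmp2 and Tspan8 were not 2-fold higher in each of the 4 pairings of an SspA+HDM strip with a mock strip. Bmp2, a signal of the BMP family, had a ratio of 2.23 in Krt79 cells (297 CPM in SspA+HDM, 133 in mock), against 0.343 in Krt79-negative cells (701 and 2040.1 CPM). Mettl7a2, a methyltransferase-like gene, had 2.82 (311 and 110.3 CPM), against 0.435. Tspan8, of the tetraspanin family, had 2.30 (846 and 368 CPM), against 0.306. In both sections all 3 were lower in Krt79 cells than in Krt79-negative cells. Within Mgll-poor members the ratios were 1.55, 2.15 and 1.57, and within Mgll-rich members 0.521, 0.682 and 0.496, the last from 12 transcripts or fewer per gene in SspA+HDM.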

How the results depend on the processing

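No paired analysis was possible because there was 1 sample per treatment. Of 25 named genes past 2-fold, all kept their direction in every alternative listed here, except Serpinb11 after thinning (log2 ratio -0.68, 19 of 25 still past 2-fold) and Aqp3 in Mgll-rich cells (-0.91), where 18 of the 25 had enough transcripts. Past 2-fold were still 12 of those 18 in Mgll-rich cells, 21 of 25 in Mgll-poor cells and 21 of 25 with equal weight on the 2 ends and the cells between, which left Emb (-0.59), Serpinb11 (0.28), Calm4 (0.89) and Aqp3 (0.42) under it. The share of epithelial cells in SspA+HDM and mock moved with the score (mock 25.04% without a minimum; 26.9% and 20.4% at 30), the Krt79 threshold (31.2% and 26.1% at 2 counts; 23.1% and 19.6% at 5; 13.2% and 11.5% at 10; 26.2% in SspA+HDM at 3% of the total), thinning (22.2% and 21.4%) and an epithelial share of 12% (29.1% and 21.3%). The distance to a follicle cell was 58.9 and 36.6 µm without a minimum score, 50.04 µm in mock at 30, 63.6 µm in SspA+HDM at 2 counts, 58.0 and 37.6 µm at 5, 48.1 and 29.9 µm at 10, 55.5 µm in SspA+HDM at 3%, 56.7 and 60.8 µm after thinning (turning the order of the sections) and 52.4 µm in mock at 12%. After thinning 16 genes were higher and 11 lower, against 30 and 23, and 19 and 12 over Krt79-negative cells, against 41 and 20. The lower genes numbered 14 without strip 2 of either section, 13 over the nucleus (27 higher over Krt79-negative cells), 38 and 12 with a gene minimum of 20 and 300, 14 at 10 Krt79 counts, and 8 (with 12 higher) in Mgll-rich cells. With the median ratio set to 1, 23 were higher over Krt79-negative cells. The threshold of 10 counts and the splits and weights by Mgll, Cd36 and Ldhb were chosen after seeing the data. The causes were not tested, beyond fewer transcripts after thinning and over the nucleus. Depth limits genes with under 100 transcripts, and a mock count of 1 to 6 leaves a ratio known only within its wide interval.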
